A study of Mus musculus with 15 samples.

Results

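The activating mutation Nras(G12D) was combined with loss of Tet2, and gene expression was compared between LSK cells of the 2 genotypes. The compared groups were Tet2-/- Nras(G12D) mice without leukemia, called the double mutant below, with 3 libraries, and Tet2-/- mice with 3 libraries. Both groups are Tet2-/- by their labels, so the comparison asks what the Nras mutation adds to Tet2 loss. Nras(G12D) mice and WT mice, with 3 libraries each, give the same step on a Tet2-intact background. A further 3 libraries of leukemic Tet2-/- Nras(G12D) mice entered the estimate of the spread and the means of 15 libraries used for base composition. All mice were C57BL/6, and the alleles were conditional and specific to blood-forming tissue per the design text, which gives 6 months as the age of mice used for methylomes and names no Cre driver. The comparison covers every gene with a log2 value of at least 0 (1 CPM, counts scaled to library size) in 3 or more of the 6 libraries, which were 13149 of the 44827 genes in the authors' table.

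LSK cells are bone marrow cells without lineage antigens but with Sca-1 and c-Kit on their surface, a fraction enriched for blood stem cells and multipotent progenitors. NRAS is a small GTPase that relays signals from cytokine receptors to the kinases RAF, MEK and ERK, and the G12D form hydrolyses GTP poorly and so stays active. Active ERK switches on immediate early genes such as the AP-1 factors, and it also induces phosphatases and adaptors that damp its own pathway. TET2 oxidises methylated cytosine and is often lost, together with RAS pathway mutations, in human myeloid disease. The series title names myeloid transformation and sensitivity to MEK inhibition as its subject.

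The 6 libraries held 27152151, 33037109 and 27160858 counts in the double mutant and 22733189, 32543558 and 32761321 counts in Tet2-/-. A gene without a count was limited to 3 counts, or 0.0905 to 0.105 CPM in the double mutant and 0.0906 to 0.127 CPM in Tet2-/-, which covers counting error only. The libraries of a group were not equally alike. Tet2-/- replicate 2 correlated at 0.970 (Pearson, log2 values across genes) with double-mutant replicate 1, above its 0.937 and 0.942 with the other Tet2-/- libraries. Y-linked genes also differed within groups, Ddx3y being at 175, 0.181 and 0.0351 CPM in the double mutant, against 259, 179 and 0 CPM in Tet2-/-. Whether each library was a different animal is not stated, and the p-values therefore describe only how these libraries spread, a spread that can be partly technical.

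The markers of the sorted fraction were present in every library. Cd34 had 1296, 1194 and 1169 CPM in the double mutant, against 1574, 1836 and 1688 CPM in Tet2-/-. The stem cell factor receptor gene Kit had 1164, 989 and 688 CPM in the double mutant, against 2910, 1747 and 1781 CPM in Tet2-/-, without overlap. Its fall of 1.17 ± 0.41 (log2 ± SE, limma, adjusted p = 0.044) was lost without double-mutant replicate 2 or 3 or without Tet2-/- replicate 1 or 3, and with the window correction described below (-0.86, adjusted p = 0.087). Ly6a, which encodes Sca-1, had 94.3, 76.4 and 72.4 CPM in the double mutant, against 136, 109 and 198 CPM in Tet2-/-, sets that do not overlap but were not called (-0.83 ± 0.37, adjusted p = 0.0962). Among genes of lineage antigens, Cd3e was at or below 0.0346 CPM in the double mutant and 0.68 CPM in Tet2-/-. Itgam, which encodes the myeloid antigen CD11b, was present in every library, with 48.1, 39.5 and 49.6 CPM in the double mutant, against 101, 58.4 and 112 CPM in Tet2-/- (-0.93 ± 0.46, adjusted p = 0.132, and 0.0257 with the replicate block). Cd4 had 2.01, 1.15 and 0.562 CPM in the double mutant, against 5.44, 3.38 and 3.57 CPM in Tet2-/- (a fall of 1.87 ± 0.67, adjusted p = 0.0481, and -1.33 with adjusted p = 0.167 after the window correction). Cd8a had 3.7, 3.38 and 6.18 CPM in the double mutant, against 1.32, 2.05 and 7.18 CPM in Tet2-/-. Their part in any result was not tested. In such bulk libraries, fewer cells of a type and less RNA per cell cannot be told apart.

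Tet2 had 62.6, 56.3 and 47.9 CPM in the double mutant, against 35.9, 59.8 and 49.3 CPM in Tet2-/-, 2 overlapping sets (log2 0.22 ± 0.31, adjusted p = 0.597, and 1 with adjusted p = 0.0295 after the window correction). WT had 65.2, 50.7 and 61 CPM of Tet2, which overlap both groups, so these totals do not show its loss. The deleted part of the gene is not given in the sources used here. Nras had 159, 157 and 145 CPM in the double mutant, below the 247, 185 and 282 CPM of Tet2-/-. This fall of 0.61 ± 0.19 (adjusted p = 0.0277) was lost without any single library but Tet2-/- replicate 2, and with the replicate number as a block (adjusted p = 0.0651), and the change was 0.02 with the window correction (adjusted p = 0.947). The totals do not show which allele was read.

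Many genes changed on adding Nras(G12D) to Tet2 loss, and on the deposited scaling more rose than fell. Of the 13149 genes, 2727 (20.7%) rose and 1199 (9.12%) fell at a Benjamini-Hochberg adjusted p below 0.05 in limma, 29.9% of all tested. The 3 values of the double mutant lay above those of Tet2-/- for 26.2% of genes and below them for 28.5%. The balance between rises and falls depended on the scaling. It was 2347 rises and 2858 falls after quantile normalization, 2031 and 3749 after centring each library on its median, 2031 and 2604 with G and C content and length regressed out, and 2567 and 560 with no filter on low values. The median change of all genes, -0.01 as deposited, was -0.25, -0.42 and -0.24 in the first 3 of these, so a list median closer to 0 than these has no settled direction. The count of falls changed most when single libraries were left out. Leaving out Tet2-/- replicate 1 left 1217 rises and 66 falls, and leaving out Tet2-/- replicate 3 left 1480 and 89. Without double-mutant replicate 2 there were 1415 rises and 262 falls, and without double-mutant replicate 3 there were 1421 and 49. Leaving out double-mutant replicate 1 gave 2572 and 820, and leaving out Tet2-/- replicate 2 gave 3347 and 1844. In all, 1117 rises (8.49%) and 33 falls (0.251%) were called without each of the 6 libraries in turn, a condition stated beside the genes below. Of the tested genes, 192 reached 1 CPM in the double mutant only, and 146 of these rose, and 63 reached it in Tet2-/- only, of which 15 fell. A gene that passes the filter through 1 group had to differ, and its call supports nothing. Outside the 192, a gene below 1 CPM in most Tet2-/- libraries also needed its double-mutant values to pass. Jund, Hist1h2ae, Ppp1r35, Mgat4b and Klf1, named below, are such genes. The counts of rises and falls in the gene lists below are to be read against 20.7% and 9.12% over all tested genes, and shares near these are no result about a list.

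The base composition of a transcript moved with its change. For each gene the richest stretch of 100 bases, in G and C, was taken from its longest coding transcript in GENCODE vM21 (GRCm38). Over the whole transcript the richest stretch held 82% G and C in Igf2r and Slc25a12 and 78% in Ctsd, all large falls, against 78% in Jun. As examples that do not span this range, the richest coding stretch within a single exon is printed for 3 genes that rose and then for 3 that fell. It is given on the coding strand with G and C in capitals.
Jun: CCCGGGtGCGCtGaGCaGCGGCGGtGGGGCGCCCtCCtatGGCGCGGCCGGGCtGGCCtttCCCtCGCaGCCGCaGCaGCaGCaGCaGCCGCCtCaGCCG
Dusp1: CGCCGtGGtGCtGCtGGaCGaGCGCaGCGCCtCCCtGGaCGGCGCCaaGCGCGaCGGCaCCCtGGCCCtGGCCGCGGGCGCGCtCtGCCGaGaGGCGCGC
Ier2: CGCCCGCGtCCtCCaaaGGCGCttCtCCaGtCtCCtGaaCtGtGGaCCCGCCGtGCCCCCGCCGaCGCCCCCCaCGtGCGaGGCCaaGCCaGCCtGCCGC
Rbpj: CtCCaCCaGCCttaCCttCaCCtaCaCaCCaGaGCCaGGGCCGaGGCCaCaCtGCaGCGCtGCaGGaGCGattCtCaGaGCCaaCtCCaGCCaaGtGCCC
Atf6: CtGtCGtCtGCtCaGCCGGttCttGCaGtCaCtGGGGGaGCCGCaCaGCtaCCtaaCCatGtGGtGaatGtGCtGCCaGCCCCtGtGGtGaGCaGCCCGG
Eif2ak2: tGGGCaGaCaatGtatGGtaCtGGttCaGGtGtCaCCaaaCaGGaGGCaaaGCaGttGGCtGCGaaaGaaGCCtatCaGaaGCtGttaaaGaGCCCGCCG
The stretches lie at chr4:95050642-95050741 (Jun), chr17:26507982-26508081 (Dusp1) and chr8:84662137-84662236 (Ier2), all on the minus strand, with 78%, 80% and 74% G and C. Those of the fallen genes lie at chr5:53653425-53653524 (Rbpj, plus strand), chr1:170834885-170834984 (Atf6, minus strand) and chr17:78871149-78871248 (Eif2ak2, minus strand), with 63%, 63% and 52%.

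Among the 978 tested genes whose richest stretch anywhere in the transcript was below 60% G and C, 3.17% rose and 9.92% fell. Among the 1751 genes at 80 to 84%, 56.5% rose and 1.26% fell. The log2 change and this richest-window value had a Spearman correlation of 0.59 across the 12843 genes with a value, against 0.29 for the G and C content of the whole transcript. Genes share their libraries, so this is a description. The pattern differed within groups, with correlations of 0.05, 0.51 and 0.39 for the deviations of the double-mutant libraries and of -0.53, -0.34 and -0.57 for those of the Tet2-/- libraries. Double-mutant replicate 1 was thus flat, and Tet2-/- replicates 1 and 3 were the steepest. Coding genes of a single exon stood out too, 129 of 256 having risen (50.4%, median log2 change 1.25). The part that base composition has in any single change was not tested, but a correction for it was run. With the richest window, G and C content and length regressed out of each library, 1256 genes (9.78%) were higher and 972 (7.57%) lower. Of the 2727 rises 1074 were still called higher, and of the 1199 falls 231 were still called lower. With that correction and each library left out in turn, 222 of the rises and 9 of the falls were called throughout. Where the correction ended the call of a gene described singly, both values are generally given below. Counts of rises and falls in the gene lists are without the correction unless it is named.

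**Figure D1:**
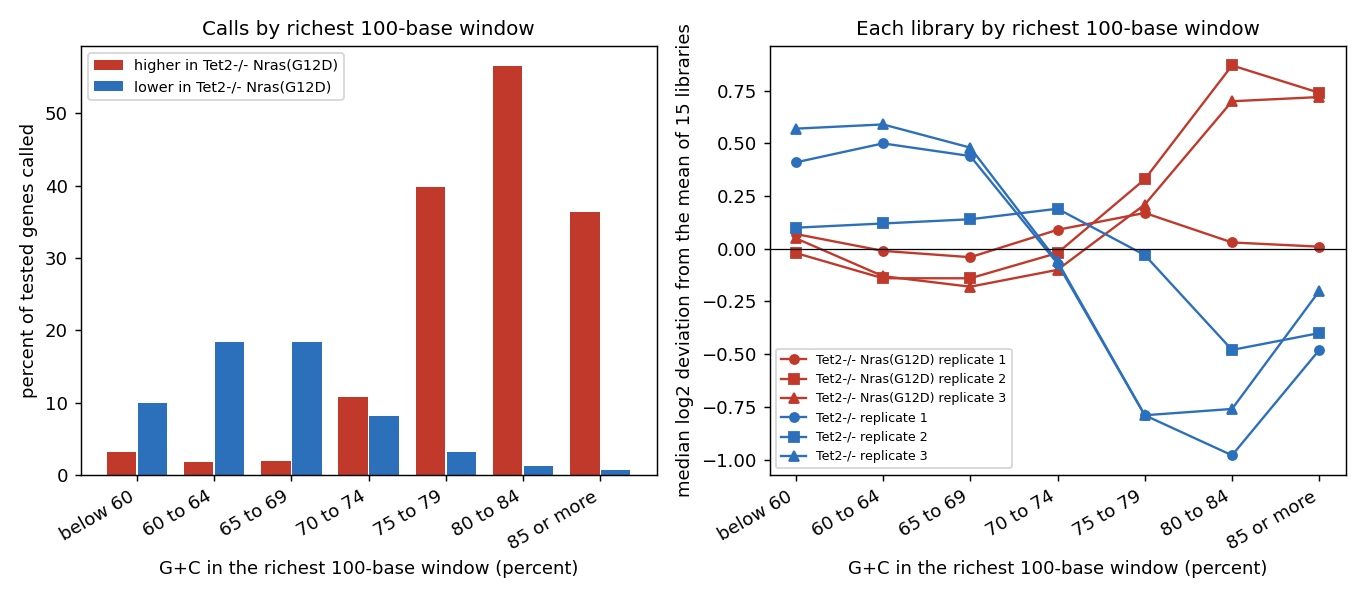
Left, the percent of tested genes called higher or lower in the double mutant (vertical axis) in 7 classes of the richest 100-base window, by percent G and C (horizontal axis). Right, the median log2 deviation of each of the 6 libraries from the mean of 15 libraries in the same classes. Rises peak at 56.5% in the class of 80 to 84%. In the classes from 80% up, double-mutant replicates 2 and 3 part from all 3 Tet2-/- libraries while double-mutant replicate 1 stays near 0.

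Of the 12 largest rises, Jun (chr4:95049034-95052222, minus strand), a core AP-1 subunit, had 379, 1230 and 1627 CPM in the double mutant, against 12, 39.9 and 9.44 CPM in Tet2-/-. All 3 double-mutant values were far above the highest Tet2-/- value, and double-mutant replicate 1 was the lowest of its group (log2 5.78 ± 0.76, adjusted p = 0.00442). Dusp1, a phosphatase of MAP kinases, had 69.5, 408 and 487 CPM in the double mutant, against 5.82, 8.21 and 5.93 CPM in Tet2-/-. It rose by 5.19 ± 0.73, again with double-mutant replicate 1 lowest. Ier2, an immediate early gene of nuclear function, had 389, 396 and 455 CPM in the double mutant, against 13.6, 58 and 8.93 CPM in Tet2-/- (4.43 ± 0.61). Here the double-mutant libraries were alike and Tet2-/- replicate 2 was the highest of its group.

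Hist1h2ae, a replication-dependent H2A gene, had 21, 43.2 and 36 CPM in the double mutant, against 0.17, 4.14 and 0.351 CPM in Tet2-/- (5.59 ± 1). H2afx, whose product marks DNA breaks once phosphorylated, had 118, 312 and 240 CPM in the double mutant, against 2.68, 33.9 and 6.67 CPM in Tet2-/- (4.6 ± 0.8). Sap30, a subunit of the Sin3 deacetylase complex, had 11.1, 65.1 and 73.8 CPM in the double mutant, against 1.02, 3.14 and 1.72 CPM in Tet2-/- (4.4 ± 0.73). In all of them the groups were apart, with Tet2-/- replicate 2 highest in its group and double-mutant replicate 1 lowest in its own. The progenitor transcription factor gene Sox4 had 14.8, 187 and 261 CPM in the double mutant, against 2.8, 3.9 and 3.7 CPM in Tet2-/- (4.7 ± 1.02, adjusted p = 0.00615).

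Abhd17a, whose human product removes palmitate from NRAS, had 25.6, 115 and 122 CPM in the double mutant, against 1.19, 7.58 and 1.91 CPM in Tet2-/- (4.77 ± 0.77). Apoe, a carrier of lipids, had 127, 234 and 305 CPM in the double mutant, against 7.56, 27.9 and 7.79 CPM in Tet2-/- (4.14 ± 0.74). The centrosomal gene Ppp1r35 (5.2 ± 0.88), the N-glycan branching enzyme gene Mgat4b (4.53 ± 0.77) and the single-stranded DNA binding gene Ssbp4 (4.19 ± 0.79) completed the 12. All 12 were called without each library in turn and with the window correction, where their changes were between 1.6 (Ssbp4) and 4.75 (Jun).

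**Figure D2:**
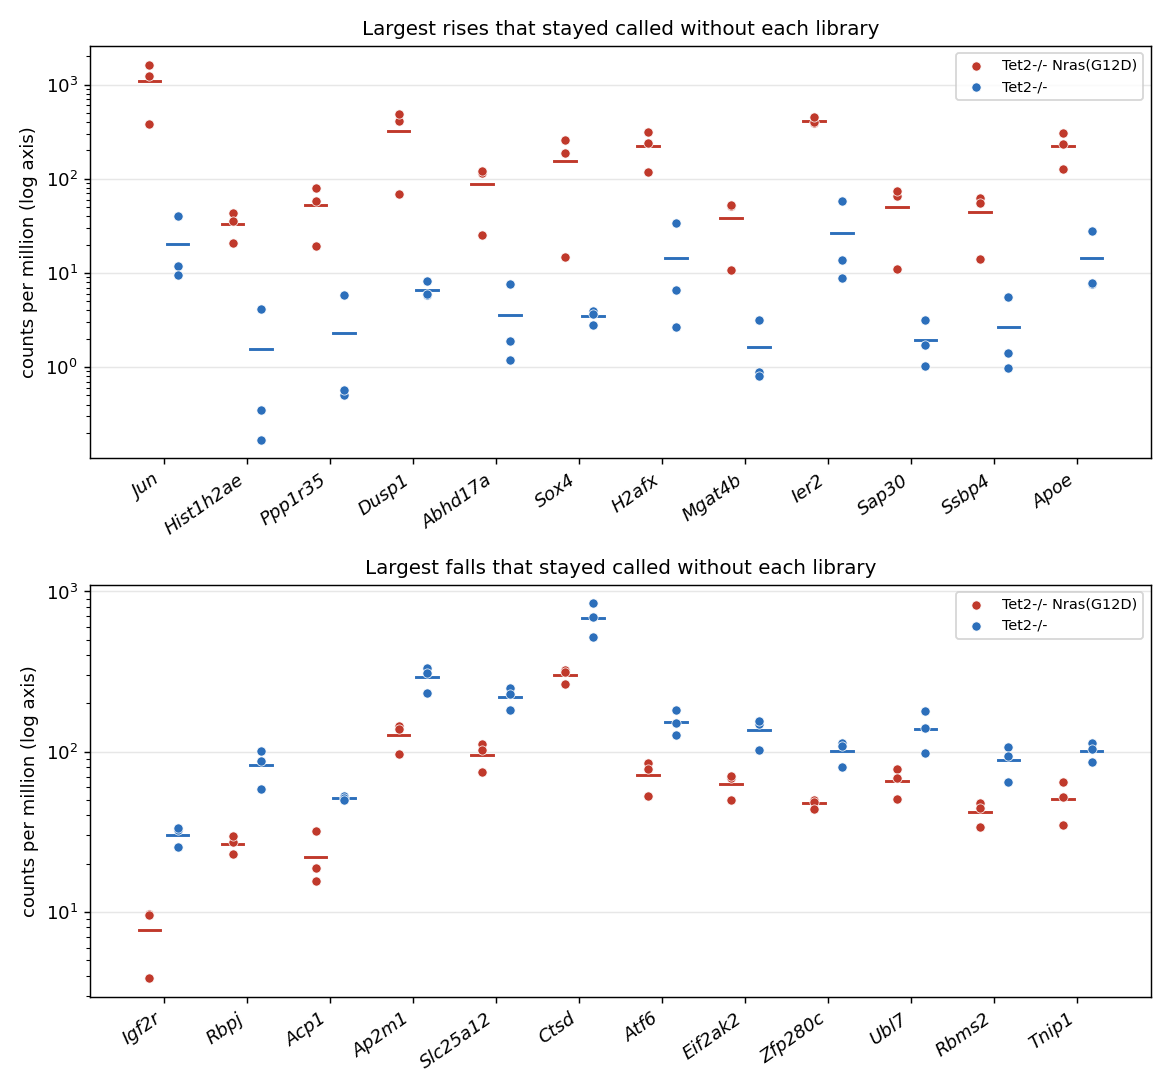
CPM on a log axis for the 12 largest rises (upper panel) and the 12 largest falls (lower panel), with 1 point per library and a bar at the group mean, the double mutant left of Tet2-/- for each gene. No pair of groups overlaps, and the rises span a far wider range, from 5.78 for Jun, than the falls, whose largest is -2.08 for Igf2r.

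The 12 largest falls were smaller than the rises. Igf2r (chr17:12682406-12769664, minus strand), the receptor that carries enzymes to lysosomes and clears IGF2, had 9.65, 9.62 and 3.86 CPM in the double mutant, against 32.3, 25.5 and 33.3 CPM in Tet2-/-. It fell by 2.08 ± 0.45 (adjusted p = 0.00633), and the highest double-mutant value of 9.65 CPM was well below the lowest Tet2-/- value of 25.5 CPM. Ctsd, a lysosomal protease, had 322, 314 and 266 CPM in the double mutant, against 844, 517 and 695 CPM in Tet2-/-, and fell by 1.16 ± 0.24. Ap2m1, a subunit of the clathrin adaptor AP-2, had 144, 138 and 97 CPM in the double mutant, against 332, 231 and 312 CPM in Tet2-/-, and fell by 1.21 ± 0.27. In each the groups were apart and Tet2-/- replicate 2 was the lowest of its group.

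Rbpj, the DNA-binding effector of Notch, had 27.2, 22.9 and 29.8 CPM in the double mutant, against 87.7, 58.3 and 101 CPM in Tet2-/-. It fell by 1.6 ± 0.26, the smallest error relative to its size among the falls named here. The mitochondrial carrier gene Slc25a12 fell by 1.2 ± 0.23, the NF-kB inhibitor gene Tnip1 fell by 1.03 ± 0.23 and Ubl7 fell by 1.07 ± 0.23. With the window correction the falls of Igf2r (-2.89), Ctsd (-2.32), Slc25a12 (-2.08), Ubl7 (-1.92), Ap2m1 (-1.32) and Tnip1 (-1.3) were as large or larger, and they were called without each library there too. Rbpj was also called with it, at -0.96. The other 5 falls were not called with that correction. They were the phosphatase gene Acp1 (-1.29 ± 0.29, -0.76 with the correction), the endoplasmic reticulum stress sensor gene Atf6 (-1.11 ± 0.25 and -0.22), Eif2ak2, which encodes the RNA-sensing kinase PKR (-1.11 ± 0.25 and -0.42), Zfp280c (-1.07 ± 0.24 and -0.54) and the RNA-binding gene Rbms2 (-1.05 ± 0.23 and -0.47).

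Along the RAS pathway, of 22 tested genes of receptor tyrosine kinases and cytokine receptors 8 rose and 2 fell, with a median log2 change of 0.07 against -0.01 over all tested genes. Csf2ra, the binding chain of the GM-CSF receptor, had 43.6, 70.3 and 78.2 CPM in the double mutant, against 4.42, 21.5 and 4.15 CPM in Tet2-/- (3.08 ± 0.58, adjusted p = 0.00442). Ifngr2, a chain of the interferon gamma receptor, had 24.8, 56.2 and 63.2 CPM in the double mutant, against 7.14, 11.6 and 7.79 CPM in Tet2-/- (2.36 ± 0.48). Both were called without each library, the only members of their list that were.

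Of 24 exchange factors and adaptors 7 rose and 2 fell (median 0.49), and 1 of the 7 passed the level filter only through the double mutant. With the window correction 2 of the 24 were higher and 3 lower. Grb2, which brings the exchange factor SOS to receptors, had 36.6, 144 and 115 CPM in the double mutant, against 15.1, 16 and 24.9 CPM in Tet2-/- (2.22 ± 0.49). Crk had 49.7, 177 and 171 CPM in the double mutant, against 22.6, 28.1 and 28.1 CPM in Tet2-/- (2.13 ± 0.43), and Ptpn11, the phosphatase SHP2, at 71.6, 125 and 87.1 CPM in the double mutant, against 17.5, 43.5 and 31.3 CPM in Tet2-/- (1.68 ± 0.37). Each of these was called without each library, and with the window correction Crk (1.09) and Ptpn11 (0.77) were called and Grb2 (1.02, adjusted p = 0.0521) was not.

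Of 16 RAS isoforms and GTPase-activating proteins, which switch RAS off, 8 rose and 1, Nras, fell (median 1.04). Rasal3, a RAS GTPase-activating protein of blood cells, had 90.3, 363 and 336 CPM in the double mutant, against 9.3, 34.7 and 16.8 CPM in Tet2-/- (3.66 ± 0.62). It was called throughout, also with the window correction (2.6), under which it was the only member called and the median was 0.15.

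Both MEK genes rose. Map2k2 (chr10:81105915-81133975, plus strand), which encodes MEK2, had 34.1, 134 and 138 CPM in the double mutant, against 7.01, 15.8 and 7.43 CPM in Tet2-/- (3.19 ± 0.57, adjusted p = 0.00442). Map2k1, which encodes MEK1, had 61.8, 107 and 98.9 CPM in the double mutant, against 11.8, 34.5 and 13.6 CPM in Tet2-/- (2.29 ± 0.48, adjusted p = 0.00524). In both the groups were apart, and both were called without each library and with the window correction (1.26 and 1.46). The WT means, 28 CPM for Map2k2 and 49.4 CPM for Map2k1, lay between those of Tet2-/- (10.1 and 20 CPM) and the double mutant (102 and 89.1 CPM).

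Araf, Braf and Mapk3, further kinases of the cascade, were not called. Araf had 145, 135 and 132 CPM in the double mutant, against 218, 170 and 218 CPM in Tet2-/- (-0.55 ± 0.22, adjusted p = 0.0704). It was called lower with the replicate block and the correction for G and C content and length together (-0.67, adjusted p = 0.0263, limma), and stood at -0.04 with the window correction. Braf had 35.4, 41.5 and 31.7 CPM in the double mutant, against 62.4, 38.9 and 72.8 CPM in Tet2-/- (-0.64 ± 0.26, adjusted p = 0.0779). Mapk3 had 71.9, 64.4 and 54.5 CPM in the double mutant, against 33.2, 60.1 and 34.3 CPM in Tet2-/- (0.63 ± 0.3, adjusted p = 0.117). Its groups overlapped, and with the window correction it stood at -0.86. Over all 32 kinases and scaffolds of this list 8 rose and 4 fell (median -0.12), the scaffold gene Ywhah being among the rises (2.58 ± 0.47). With the window correction 3 of the 32 were higher and 6 lower.

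Genes listed here as ERK feedback inhibitors rose in 8 of 21 cases and fell in none (median 1.27). The list includes Dusp1, described above, and Socs1, which passed the level filter only through the double mutant. Whether Socs1 damps ERK in these cells was not tested. Spry1, a Sprouty inhibitor, had 7.19, 9.26 and 11.2 CPM in the double mutant, against 1.23, 3.84 and 1.6 CPM in Tet2-/- (2.2 ± 0.51), and was at 1.39 with the window correction (adjusted p = 0.0671). With that correction 2 of the 21 were called and the median was 0.2.

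Immediate early genes had the highest median of the 11 signalling lists. Of 22 tested immediate early genes 15 rose and none fell (median 2.9), 2 of the 15 having passed the filter only through the double mutant, and 11 were called without each library. Their summed level was 4319, 5466 and 6322 CPM in the double mutant and 1130, 1938 and 1199 CPM in Tet2-/-. With the window correction 14 were called higher with a median of 1.86, against 2 higher of 24 adaptors and 2 higher of 21 feedback inhibitors. Egr1, a zinc finger factor induced by ERK, had 181, 189 and 163 CPM in the double mutant, against 18.8, 13.4 and 4.18 CPM in Tet2-/- (4.12 ± 0.64). Ier5 had 22.5, 103 and 149 CPM in the double mutant, against 2.51, 6.49 and 4.34 CPM in Tet2-/- (4.08 ± 0.69). Both were called throughout the leave-one-out fits and with the window correction (2.8 and 2.92). Of 25 further ERK-dependent nuclear targets, which include some of the same genes, 9 rose and none fell (median 0.93, and 0.25 with the correction). Of these 9 rises 2 passed the filter only through the double mutant.

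Of 17 tested AP-1 subunits 8 rose and 1 fell (median 1.22, and 1.02 with the correction, where 7 were higher). Jund had 7.92, 44.5 and 60.2 CPM in the double mutant, against 0.68, 1.09 and 0.798 CPM in Tet2-/- (5.02 ± 0.72). Junb had 282, 271 and 319 CPM in the double mutant, against 14.1, 63.8 and 8.93 CPM in Tet2-/- (3.86 ± 0.6). Of the 8 rises 2, Maff among them, passed the filter only through the double mutant. All 3 Jun genes were called without each library and with the correction.

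**Figure D3:**
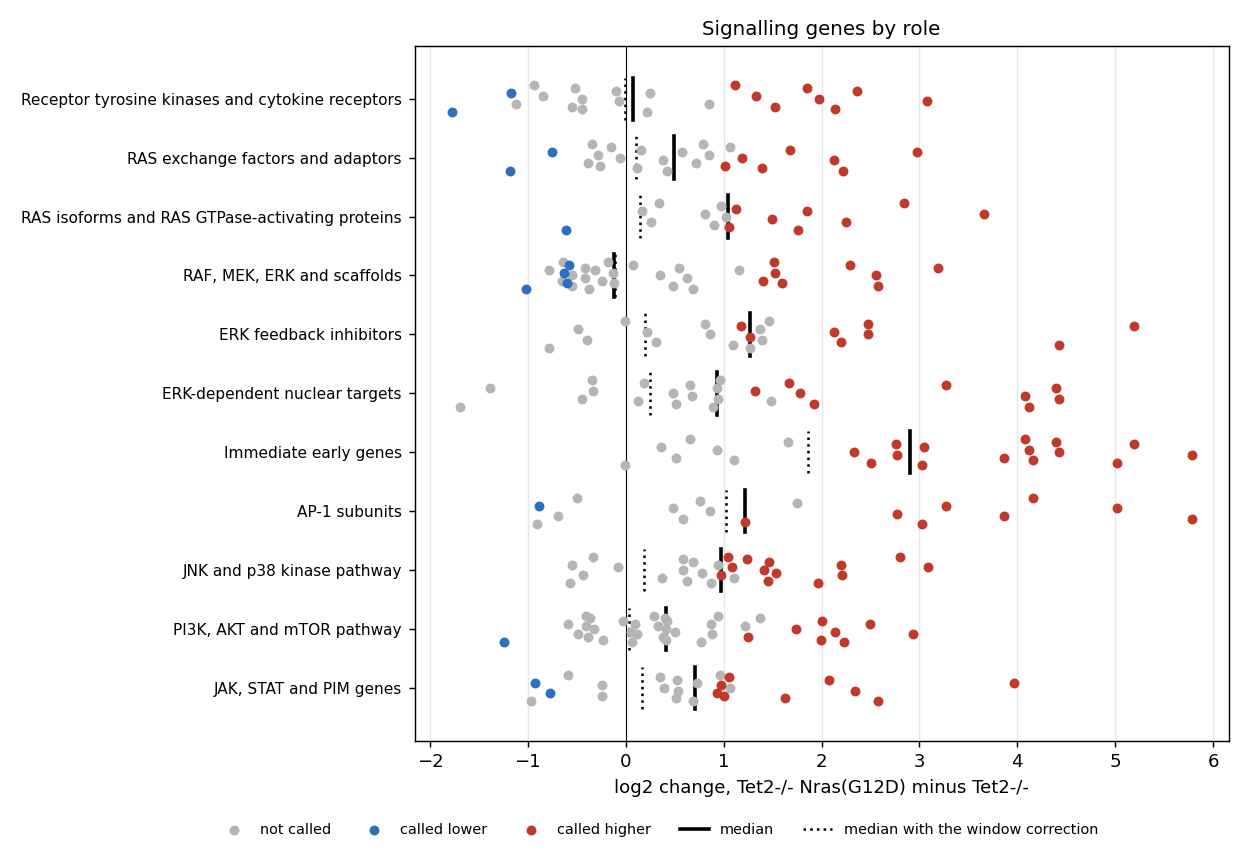
Log2 change in the double mutant relative to Tet2-/- (horizontal axis) of every tested member of 11 lists of signalling genes, with 1 point per gene and members of a list spread vertically only for legibility. Solid bars mark the median of a list and dotted bars its median with the window correction. Immediate early genes stand highest at 2.9 and 1.86, while most upstream lists fall close to 0 with the correction.

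The promoters of the immediate early genes were searched for 6 short sequence elements. In RefSeq start site tables (GRCm38.p6), 9514 of the 13149 tested genes and 19 of the 22 immediate early genes matched, and the 250 bases before each start were read on both strands. The cAMP response element, TGACGTCA, was in 3 of these 19 promoters (15.8%), in 3.5% of the promoters of all risen genes and in 3.06% of all tested promoters. Of the 15 immediate early genes that rose, 13 had a promoter to search, and 15.4% of these 13 held it. The 13 are part of the 19, and 3 promoters are too few to show whether holding the element went with rising. The promoters that hold it are printed on the coding strand, with the element in capitals.
Dusp1: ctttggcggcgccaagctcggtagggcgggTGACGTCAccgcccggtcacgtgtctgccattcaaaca
Ppp1r15a: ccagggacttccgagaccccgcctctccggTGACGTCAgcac
Btg2: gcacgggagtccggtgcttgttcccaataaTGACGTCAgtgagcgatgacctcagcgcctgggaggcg
They lie at chr17:26508578-26508645 (Dusp1), chr7:45526269-45526310 (Ppp1r15a) and chr1:134079284-134079351 (Btg2), all on the minus strand, and the element begins 143, 12 and 166 bases before the start. Dusp1 and Ppp1r15a rose, and Btg2, named for its element after its values were seen, was at 0.36 ± 0.31 and not called. The AP-1 element, TGANTCA, was in none of the 19 promoters, in 3.94% of those of risen genes and in 5.35% of all. The ETS element CCGGAAGT was in none of the 19, in 6.37% of risen, 9.26% of fallen and 6.94% of all promoters. The GC box, GGGCGG, was in 84.2% of the immediate early promoters, 72.1% of risen, 57.1% of fallen and 63.1% of all promoters, whose median G and C content was 66%, 63.6%, 57.6% and 60.8% in the same order. The CCAAT box was in 42.1% of the immediate early promoters, 37.6% of risen, 45.6% of fallen and 40.7% of all. The CArG box, bound by serum response factor, was in 1 of the 19 (5.26%), in 1.12% of risen and in 1.29% of all. It was in none of the 13 promoters searched among the 15 immediate early genes that rose, and the remaining risen ones were not searched. A match is a string of letters and not a bound site.

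Of 27 JNK and p38 pathway genes 13 rose and none fell (median 0.97, 0.19 with the window correction). Gadd45a, a stress-induced activator of these kinases, had 14, 16.2 and 23.8 CPM in the double mutant, against 2, 4.44 and 1.75 CPM in Tet2-/- (2.8 ± 0.48). Map3k11 had 59.1, 153 and 109 CPM in the double mutant, against 7.6, 28.3 and 7.27 CPM in Tet2-/- (3.09 ± 0.67). Of 36 PI3K, AKT and mTOR genes 8 rose and 1 fell (median 0.41, 0.03 with the correction), among them Rheb, the GTPase that activates mTORC1, with 85.5, 164 and 173 CPM in the double mutant and 15.9, 42.9 and 19.5 CPM in Tet2-/- (2.5 ± 0.48). Of 24 JAK, STAT and PIM genes 9 rose and 2 fell (median 0.71, 0.17 with the correction). The survival kinase gene Pim3 had 9.65, 46.7 and 51.3 CPM in the double mutant, against 1.61, 2.2 and 1.66 CPM in Tet2-/- (3.97 ± 0.6). These 4 genes were called without each library and with the correction.

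Of 26 tested genes of the unfolded protein response 11 rose and 2 fell (median 0.84), and 9 were higher with the window correction. Xbp1, the transcription factor made active by IRE1 splicing, had 80.4, 199 and 196 CPM in the double mutant, against 18.7, 31.8 and 26.2 CPM in Tet2-/- (2.55 ± 0.44). Ppp1r15a, which encodes GADD34, the subunit that ends eIF2alpha phosphorylation, had 196, 136 and 155 CPM in the double mutant, against 29.4, 47.7 and 16 CPM in Tet2-/- (2.51 ± 0.46). Dnajc3, a chaperone that inhibits eIF2alpha kinases, had 94.7, 235 and 212 CPM in the double mutant, against 33.3, 45.9 and 44.4 CPM in Tet2-/- (2.04 ± 0.37). All 3 were called throughout, window correction included (1.33, 2.43 and 1.37), whereas Atf6, of the same list, and Eif2ak2, an eIF2alpha kinase gene outside it, were among the falls above. Of 22 heat shock genes 10 rose and 1 fell (median 0.44). Their regulators Hsf1 (1.82 ± 0.38) and Hsf2 (1.54 ± 0.32) and the chaperone gene Hspa4 (2.23 ± 0.46) rose without each library and with the correction.

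Most measured replication-dependent histone genes rose. Of 63 such genes 28 passed the level filter, and 24 of these rose and none fell (median 2.09). Of the 24 rises 8 passed the filter only through the double mutant, Hist1h2ac and Hist1h3d among them, so the sum over all 63 is also given, 566, 510 and 560 CPM in the double mutant and 123, 269 and 177 CPM in Tet2-/-. With the window correction 22 were higher (median 1.9), and 12 were called without each library there too. Hist1h1c, a linker histone, had 81.5, 66.7 and 84.9 CPM in the double mutant, against 5.31, 17.7 and 4.69 CPM in Tet2-/- (3.34 ± 0.5). Hist1h1c was called throughout. These messages mostly lack poly(A) tails, the libraries were made from mRNA per the labels, and near-identical copies may share reads. How much of the difference lies in tailed copies was not tested.

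Of 43 DNA replication genes 5 rose and 8 fell (median -0.4), with Chaf1a, a chaperone that loads new histones, at 23, 109 and 65.9 CPM in the double mutant, against 8.16, 12 and 11.3 CPM in Tet2-/- (2.41 ± 0.51). Chaf1a was the only one of the 5 rises called without each library. With the window correction 1 of the 43 genes was higher and 4 were lower (median -0.09). Of 40 mitosis and spindle genes 7 rose and none fell (median -0.06, 0.34 with the window correction). Ccna2, the cyclin of S phase and G2, had 77.7, 250 and 165 CPM in the double mutant, against 6.33, 22.1 and 17 CPM in Tet2-/- (3.46 ± 0.58), called throughout (2.29 with the correction). Cdc20, an activator of the anaphase-promoting complex, had 175, 176 and 125 CPM in the double mutant, against 14, 76.8 and 18.8 CPM in Tet2-/- (2.53 ± 0.58).

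Of 14 tested cell cycle inhibitors 7 rose and none fell (median 0.91, 0.68 with the correction), 1 of the 7 having passed the filter only through the double mutant. Btg1, an antiproliferative gene, had 31.9, 82.4 and 90.5 CPM in the double mutant, against 8.45, 11.5 and 12.5 CPM in Tet2-/- (2.54 ± 0.41), called throughout. Of 24 genes of p53 and its targets 6 rose and none fell (median 0.16), 2 of the 6 having passed the filter only through the double mutant. The death gene Bbc3, which encodes PUMA, had 8.09, 26 and 38.9 CPM in the double mutant, against 1.23, 3.23 and 1.05 CPM in Tet2-/- (3.63 ± 0.58), and stood at 0.7 with the correction (adjusted p = 0.0879). Of 18 BCL2 family genes 4 rose and none fell (median 0.36), against 1 higher and 2 lower with the correction. Of 17 MYC network genes 5 rose and 2 fell (median 0.31), against 1 higher and 1 lower with the correction.

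Enzymes that write or erase DNA methylation include the deleted gene itself. Of 21 tested, 7 rose and none fell (median 0.31). Tet3, a paralogue of Tet2, had 104, 133 and 124 CPM in the double mutant, against 29.7, 67.5 and 46 CPM in Tet2-/- (1.4 ± 0.31), a call held without each library and lost with the window correction (0.67, adjusted p = 0.0933). Uhrf2, a reader of hydroxymethylated cytosine, had 77.5, 214 and 198 CPM in the double mutant, against 31.2, 41.5 and 44 CPM in Tet2-/- (1.95 ± 0.34, 0.82 with the correction).

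Of 33 Polycomb and Asxl genes 9 rose and 2 fell (median 0.18), against 3 higher and 4 lower with the window correction (median -0.06). Of 39 histone lysine methyltransferases and demethylases 11 rose and 1 fell (median 0.4), against 2 higher and 3 lower with the correction. Of 33 histone acetyltransferases and deacetylases 8 rose and 2 fell (median 0.1), against 4 higher and 5 lower with the correction. Hdac2 had 66, 283 and 315 CPM in the double mutant, against 20.2, 29.7 and 25.1 CPM in Tet2-/- (2.87 ± 0.54), and Sirt7 at 98.3, 127 and 153 CPM in the double mutant, against 11.8, 39.6 and 14 CPM in Tet2-/- (2.73 ± 0.46). Both were called throughout (1.7 and 1.71 with the correction). Brd2, a reader of acetylated histones, had 317, 519 and 412 CPM in the double mutant, against 81, 153 and 117 CPM in Tet2-/- (1.85 ± 0.34).

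Of 40 subunits of RNA polymerase II and Mediator 9 rose and 3 fell (median -0.2), with Med30 at 14.9, 45.8 and 49.6 CPM in the double mutant, against 1.57, 4.14 and 3.22 CPM in Tet2-/- (3.54 ± 0.59). Of 38 splicing factors 10 rose and 5 fell (median -0.07). The serine-arginine factors Srsf4 (3.47 ± 0.55) and Srsf6 (2.17 ± 0.37) rose and were called throughout, Srsf6 being at 196, 479 and 475 CPM in the double mutant, against 60.5, 96.2 and 83.8 CPM in Tet2-/-.

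Of 76 cytosolic ribosomal protein genes 4 rose and 1 fell (median -0.14), with Rpl13 at 546, 495 and 609 CPM in the double mutant, against 77.2, 304 and 86 CPM in Tet2-/- (2.12 ± 0.47). With the window correction 1 of the 76 was higher and 9 were lower. Of 70 nuclear respiratory chain genes 13 rose and 7 fell (median -0.2), with Cox5a at 37.9, 64.4 and 70.4 CPM in the double mutant, against 1.7, 14.5 and 2.46 CPM in Tet2-/- (3.81 ± 0.73). Of these 70, 4 were higher and 11 lower with the correction. None of 10 mitochondrially encoded genes was called (median 0.08). Of 36 proteasome subunits 3 rose and 7 fell (median -0.44), and the falls among these numbered between 0 and 21 as single libraries were left out. With the correction 1 of the 36 was higher and 3 were lower (median -0.19). Glycolysis enzymes fell in 9 of 23 cases and rose in 1 (median -0.51, -0.31 with the window correction, where 7 were lower). Gapdh had 529, 507 and 420 CPM in the double mutant, against 903, 734 and 994 CPM in Tet2-/-, a fall of 0.85 ± 0.18 that was called without each library and with the correction (-0.9). Of 24 cholesterol synthesis genes 5 rose and 2 fell (median -0.02), with Insig1, which holds back sterol synthesis, at 22, 64 and 72.8 CPM in the double mutant, against 3.87, 8.85 and 4.53 CPM in Tet2-/- (3.12 ± 0.55).

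**Figure D4:**
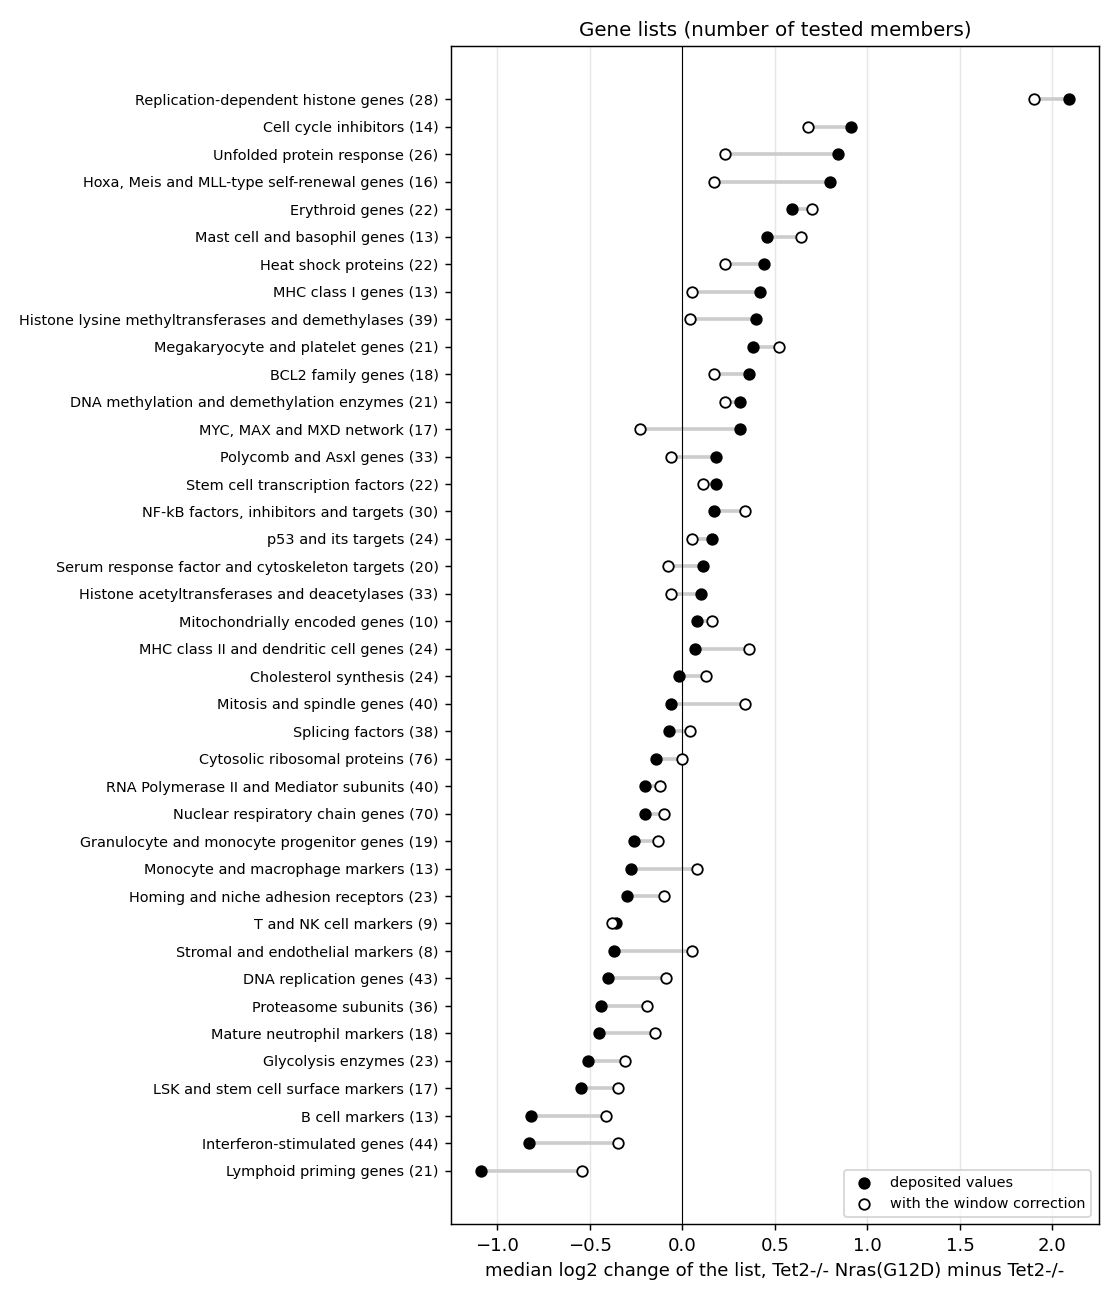
Median log2 change in the double mutant relative to Tet2-/- (horizontal axis) of the gene lists outside signalling, with the number of tested members after each name. Filled points use the deposited values and open points the window correction. Replication-dependent histone genes stand apart at 2.09 and 1.9, and lymphoid priming genes are lowest at -1.09 and -0.54.

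Of 22 stem cell transcription factors 6 rose and none fell (median 0.18). Lmo2, a bridging factor of the stem cell complex, had 290, 749 and 825 CPM in the double mutant, against 68.4, 121 and 81.4 CPM in Tet2-/- (2.68 ± 0.44), called throughout (1.44 with the window correction). Gata2 had 244, 291 and 294 CPM in the double mutant, against 54.6, 93.3 and 53.2 CPM in Tet2-/- (2.09 ± 0.39), and stood at 0.64 with the correction (adjusted p = 0.104). Runx1 had 107, 226 and 182 CPM in the double mutant, against 35.9, 53.9 and 49.2 CPM in Tet2-/- (1.84 ± 0.35, 1.1 with the correction). Of 16 Hoxa, Meis and MLL-type self-renewal genes 2 rose and none fell (median 0.8), Myb by 1.47 ± 0.28. With the correction the list's median was 0.17, none was higher and 1 was lower, and Myb stood at 0.33 (adjusted p = 0.181). Of 17 LSK and stem cell surface markers 1 rose and 2 fell (median -0.55), their sum being 4747 to 5905 CPM in the double mutant and 7190 to 8854 CPM in Tet2-/-.

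Of 19 granulocyte and monocyte progenitor genes 4 rose and 1 fell (median -0.26). Spi1, which encodes PU.1, had 126, 215 and 235 CPM in the double mutant, against 14.7, 54 and 19.4 CPM in Tet2-/- (2.9 ± 0.61), and stood at 1.21 with the correction (adjusted p = 0.0541). Irf8, a factor of monocytes and dendritic cells, had 701, 570 and 429 CPM in the double mutant, against 36.9, 285 and 116 CPM in Tet2-/- (2.38 ± 0.57, 1.48 with the correction). Of 24 MHC class II and dendritic cell genes 3 rose and 1 fell (median 0.07), with a sum of 4215 to 6245 CPM in the double mutant and 2348 to 6168 CPM in Tet2-/-, which overlap.

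Prss34, a protease of basophils, had 65.5, 27.8 and 21.3 CPM in the double mutant, against 1.02, 2.48 and 5.62 CPM in Tet2-/- (3.79 ± 0.55), and was among the calls that held in every fit (4.04 with the window correction). It and Gata2 were the 2 rises among 13 mast cell and basophil genes, whose sum was 625 to 711 CPM in the double mutant and 351 to 549 CPM in Tet2-/-. Of 21 megakaryocyte and platelet genes 5 rose and none fell (median 0.38), of which the platelet glycoprotein gene Gp5 passed the filter only through the double mutant. Of 22 erythroid genes 3 rose and none fell (median 0.59), and none of the 3 was called without each library. Klf1, their master regulator, had 14.1, 15.8 and 6.85 CPM in the double mutant, against 0.467, 1.87 and 0.287 CPM in Tet2-/- (4.14 ± 1.09, adjusted p = 0.014), a call lost without double-mutant replicate 2 or Tet2-/- replicate 1 or 3 and with the correction (2.53, adjusted p = 0.0812). The share of such cells in a sort was not tested.

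Of 21 lymphoid priming genes 7 fell and 3 rose (median -1.09), and the falls numbered 1 to 9 as single libraries were left out. Rbpj is one of the 7 falls. With the window correction 3 of the 21 were lower and 3 higher (median -0.54). The E protein gene Tcf3 rose, with 95, 294 and 244 CPM in the double mutant and 7.18, 40 and 8.81 CPM in Tet2-/- (3.8 ± 0.66). Of 44 interferon-stimulated genes 11 fell and 2 rose (median -0.83), between 1 and 17 falling as single libraries were left out. With the window correction 1 fell and 2 rose (median -0.35). Dhx58, which encodes the RNA helicase LGP2, had 37.4, 33.7 and 22.9 CPM in the double mutant, against 74, 56.5 and 83.3 CPM in Tet2-/-. It fell by 1.2 ± 0.28 (adjusted p = 0.00848), a call lost without double-mutant replicate 3. Of 13 MHC class I genes 4 rose and 3 fell (median 0.42). H2-D1 had 2821, 2375 and 2664 CPM in the double mutant, against 388, 1659 and 463 CPM in Tet2-/- (1.97 ± 0.44), Tet2-/- replicate 2 being the nearest to the double mutant.

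Of 30 NF-kB factors, inhibitors and targets 11 rose and 2 fell (median 0.17). Nfkb2, the p100 precursor, had 28.2, 45.1 and 32.2 CPM in the double mutant, against 4.25, 13.8 and 4.66 CPM in Tet2-/- (2.41 ± 0.46, 1.66 with the correction), called throughout, while the inhibitor gene Tnip1 fell. Of 23 homing and niche adhesion receptors 3 rose and 3 fell (median -0.3), with the prostaglandin E2 receptor gene Ptger4 at 15.5, 70.4 and 56.5 CPM in the double mutant, against 5.05, 5.65 and 6.25 CPM in Tet2-/- (2.81 ± 0.51). Of 20 serum response factor and cytoskeleton targets 4 rose and 4 fell (median 0.11), with the actin-binding gene Pfn1 at 869, 1089 and 1260 CPM in the double mutant, against 64.8, 373 and 74.6 CPM in Tet2-/- (3.12 ± 0.63).

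B cell markers summed to 402 to 521 CPM in the double mutant and 528 to 665 CPM in Tet2-/-, with 1 of 13 called, lower in the double mutant. That gene passed the filter only through Tet2-/-. T and NK cell markers summed to 275 to 366 CPM in the double mutant and 394 to 483 CPM in Tet2-/-, with 2 of 9 called, both lower. With the window correction none of the B cell markers and none of the T and NK cell markers was called. Mature neutrophil markers summed to 606 to 1077 CPM in the double mutant and 759 to 1235 CPM in Tet2-/-, with 1 of 18 called higher. Monocyte and macrophage markers summed to 580 to 673 CPM in the double mutant and 527 to 1410 CPM in Tet2-/-, with none of 13 called. Stromal and endothelial markers summed to 336 to 472 CPM in the double mutant and 544 to 679 CPM in Tet2-/-, with none of 8 called. The part of these cells in any result was not tested.

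The same mutation was also set against WT on a Tet2-intact background. Nras(G12D) against WT gave 0 called genes in limma, with 482 at an unadjusted p below 0.05. The difference between the 2 steps, the interaction, was called for 0 genes in limma (2778 at an unadjusted p below 0.05) and for 5994 in limma's voom with sample quality weights. The limma count of interaction calls was 498 without double-mutant replicate 1 and 1699 without Tet2-/- replicate 2, the 2 libraries that resembled each other, and 0 without each of the other 4.

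Single genes show how the 2 steps compare. Jun had 47.1, 53.7 and 38.4 CPM in Nras(G12D), against 15, 57.8 and 33.7 CPM in WT, so its values there overlapped (log2 0.58 ± 0.76), and its interaction was 5.21 ± 1.08 (adjusted p = 0.142). Egr1 had 6.42, 5.94 and 7.56 CPM in Nras(G12D), against 5.95, 12.2 and 8.13 CPM in WT (-0.34 ± 0.64), with an interaction of 4.46 ± 0.91 (adjusted p = 0.142). Map2k2 had 58.3, 67.8 and 21 CPM in Nras(G12D), against 19.6, 40.7 and 23.6 CPM in WT (0.71 ± 0.57), with an interaction of 2.48 ± 0.81 (adjusted p = 0.143). Igf2r had 16, 28.3 and 23.8 CPM in Nras(G12D), against 40.7, 34.9 and 49.6 CPM in WT (-0.9 ± 0.45, adjusted p = 0.984), the groups being apart there as well. Prss34 had 25.8, 30.9 and 26.3 CPM in Nras(G12D), against 25.3, 50.4 and 19.5 CPM in WT, close to the double mutant and above Tet2-/-.

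**Figure D5:**
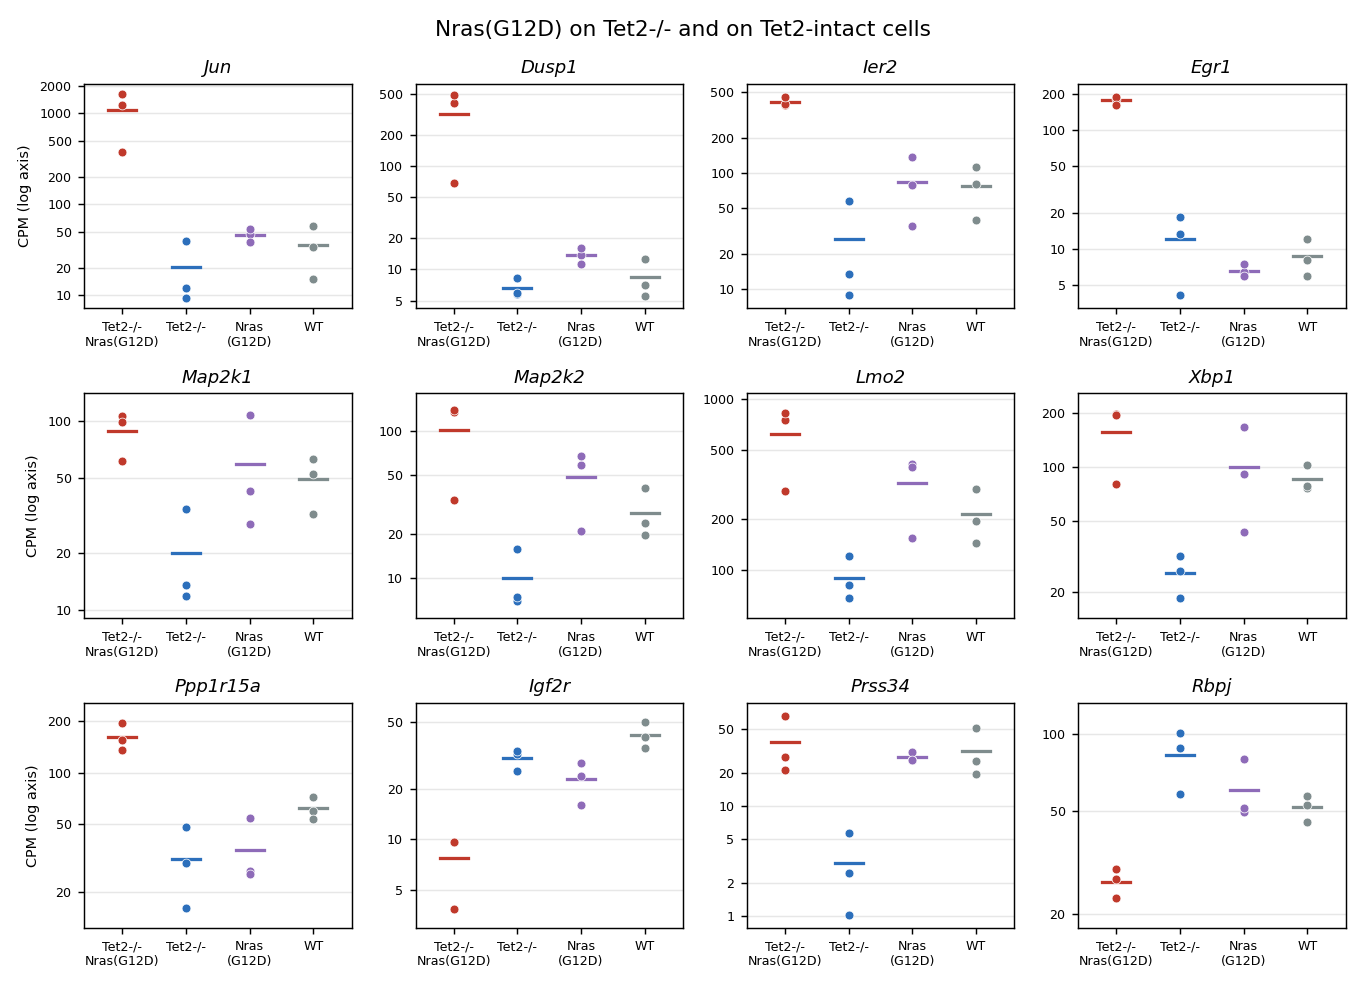
CPM on log axes for 12 genes in the double mutant, Tet2-/-, Nras(G12D) and WT, with 1 point per library and a bar at the group mean. Jun, Dusp1, Ier2 and Egr1 are high in the double mutant and low in the other 3 groups, while the Nras(G12D) and WT values of Map2k1 and Map2k2 overlap each other.

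The 2 steps share no library, so their directions were set side by side. Of the 2727 genes that rose on the Tet2-/- background, 76.8% were above 0 in Nras(G12D) minus WT (median log2 0.28), against 47.9% of all tested genes (median -0.02). Of the 1199 that fell, 24% were above 0 (median -0.14). Base composition moved with this too. Among genes with a richest window of 80 to 84% G and C, 75.1% of all and 88.4% of the risen were above 0 in Nras(G12D) minus WT, and among those of 70 to 74% the shares were 33.5% and 51.4%. In Nras(G12D) minus WT, 17 of 22 immediate early genes (median 0.49) and 23 of 28 replication-dependent histone genes (median 0.41) were above 0, none of them called. Of 26 unfolded protein response genes only 5 were above 0 there (median -0.25).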

How the data were processed

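RNA of sorted LSK cells from mouse bone marrow was sequenced as stranded mRNA libraries, per the labels' protocols. The submitters' processing notes list the aligner STAR (2.4.0f1) and the authors' use of edgeR (3.14.0) and limma (3.28.21), beside the builds mm10 and NCBIM37 without a role. How reads were counted is not given in the sources used here. The authors deposited log2 CPM (counts scaled to library size) with 0.5 added to each count and library sizes scaled. Undoing that transform gave whole counts for 100% of the deposited values (tolerance 1e-06), and CPM here is such a count over the authors' scaled library size, with no count added. Total counts per sample are given in the text, and precision is given as the standard error of each change.

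Genes with a log2 value of at least 0 in 3 of the 6 libraries compared were tested with limma 3.58.1 (trend, R 4.3.3) on the deposited log2 values, with 15 libraries, 5 group means and 10 residual degrees of freedom. P-values were adjusted by Benjamini-Hochberg over all 13149 genes, and adjusted p-values in the text are from this fit unless another is named. Alternatives included other scalings, voom with sample quality weights, other filters, left-out libraries and natural splines (5 degrees of freedom) of the richest 100-base window, G and C content and length. The last was added after seeing the data, as "window correction" or "correction" in the text. The script was tested on simulated data.

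Deviations of same-numbered libraries from their group means were weakly correlated (0.15, 0.12 and 0.14). Deviations within a group are not independent of one another, so these values cannot show a pairing. The labels do not say that the numbers pair samples, and the replicates numbered 2 differed in Ddx3y (0.181 CPM in the double mutant, 179 CPM in Tet2-/-). The main fit therefore has no pairing, and the replicate block was an alternative. Members, the 52 gene lists and tests were chosen with earlier results of these data known. Named genes were the 12 largest rises and falls among called genes whose groups were apart, whose higher mean was at or above the median gene and whose call held without each library, with predicted models, pseudogenes and similar excluded. In each list up to 4 members of smallest adjusted p were eligible, and Tet2, Nras and set genes of the RAF, MEK and ERK kinases were to be named always. Some genes that these rules name are not reported here. Promoters are from RefSeq (GRCm38.p6) and transcripts from GENCODE vM21.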

Additional observations from a re-analysis of the deposited data

How the results depend on the processing

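Of 3926 called genes in the double mutant against Tet2-/-, the count moved by more than 1.5 times with the window correction (2228), with the replicate block and that correction together (2081) and in voom with sample quality weights (8632). Leaving out single libraries gave 1283 to 5191. With the mean level of the Y-linked genes as a covariate it was 3865, with 2778 rises and 1087 falls. With the window correction, leaving out single libraries gave 595 to 2876. Without the leukemic group there were 2997 rises and 1962 falls, and with only the 6 libraries compared 2793 and 1798. The replicate block alone gave 4206 and the block with the correction for G and C content and length gave 5358. The block alone ended the call of Nras, called Itgam (adjusted p = 0.0257, limma) and changed no other call among the named genes. Together with the window correction it also ended those of Csf2ra, Ptpn11, Ywhah, Maff, Gadd45a, Rpl13, Gapdh, Hsf2, Dhx58, H2-D1 and Irf8, whose adjusted p-values were 0.051 to 0.111.

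The interaction, with 0 calls, gave 1 after quantile normalization, 5994 in voom with sample quality weights and 0 to 1699 when single libraries were left out. Direction changed for 3 named genes. Mapk3 was at -0.18 with the correction for G and C content and length and at -0.86 with the window correction, each with and without the block. Tet2 was at -0.04 after quantile normalization and -0.19 after median centring. Nras was at 0.02 with the window correction, with and without the block. The cause was not tested. The count models planned as alternatives are not reported. A gene at 0 counts is limited only to 3 counts in its library.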
